A study of Mus musculus with 16 samples.

Results

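Carotid arteries taken 28 days after wire injury were compared with arteries taken 1 day after it, across all mouse microRNAs (miRNAs) of an Agilent 1-colour miRNA array. The comparison used 7 of the 16 arrays in the series, 4 at day 28 and 3 at day 1, chosen by their titles. Of the 611 mouse miRNAs with probes, 321 were detected (well above background) on all arrays of 1 or more of the 5 groups and were tested. All animals were female ApoE-/- mice, which lack apolipoprotein E, on a C57BL/6 background and fed a western-type diet. The day 1 mice were labelled as 8 weeks of age and the day 28 mice as 6 to 8 weeks, and whether that was the age at injury or at sampling is not given in the sources used here. Arteries without injury (n = 3, 6 to 8 weeks) served as the control and carry the same genotype. The design text names 3 to 4 animals per group, so the replicates were treated as separate animals. RNA came from the whole vessel, so fewer cells of a type and less RNA per cell cannot be told apart in any value below. The comparison sets a formed neointima against an acutely injured wall.

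A miRNA is a short RNA cut from a hairpin precursor, and either strand of the hairpin may be kept, with names ending in 5p and 3p or, for the strand thought to be rarer, in a star. It lowers the output of messenger RNAs that pair with its seed, bases 2 to 8. After a wire strips the endothelium of an artery, leukocytes enter the wall early. Smooth muscle cells later leave their contractile state, and with them a neointima forms inside the vessel.

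The sequences of miRNAs on which the comparison turns are given first, from 5′ to 3′ with the seed in capitals. They were taken from RefSeq (GRCm38.p6) through current miRBase names, and 28 of the 33 names looked for were matched. The array's names are older than those of the table and share no accession with it, so the strand assignment rests on the known renaming. miR-199b*, miR-297a*, miR-466d-3p, miR-532-5p and miR-34c are named only. The first set holds miRNAs that were higher at day 28, with those that share a seed placed together.
miR-34a: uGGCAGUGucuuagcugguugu
miR-34b-5p: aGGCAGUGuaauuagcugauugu
miR-146a: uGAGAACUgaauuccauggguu
miR-146b: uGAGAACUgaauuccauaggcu
miR-195: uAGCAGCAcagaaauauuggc
miR-497: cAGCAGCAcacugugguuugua
let-7b: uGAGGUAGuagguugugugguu
let-7i: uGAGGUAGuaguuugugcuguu
miR-155: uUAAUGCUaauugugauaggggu
miR-342-3p: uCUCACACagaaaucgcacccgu
miR-342-5p: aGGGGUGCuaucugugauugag
miR-199a-5p: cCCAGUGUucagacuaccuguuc
miR-199a-3p: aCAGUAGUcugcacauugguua
miR-214: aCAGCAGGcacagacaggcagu
miR-31: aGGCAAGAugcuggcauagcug
miR-299: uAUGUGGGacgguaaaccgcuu

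The second set holds miRNAs that were lower at day 28.
miR-223: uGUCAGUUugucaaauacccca
miR-7a: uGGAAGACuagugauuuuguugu
miR-7b: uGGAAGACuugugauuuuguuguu
miR-218: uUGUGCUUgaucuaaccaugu
miR-138: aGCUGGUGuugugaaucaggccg
miR-153: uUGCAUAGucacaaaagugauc
miR-34b-3p: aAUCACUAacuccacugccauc
miR-188-5p: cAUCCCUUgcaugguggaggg
miR-551b: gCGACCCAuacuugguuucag
miR-340-5p: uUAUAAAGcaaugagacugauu

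Among these, 5 seeds were held by a pair of miRNAs each. miR-146a and miR-146b were identical at 20 of 22 positions, miR-7a and miR-7b at 22 of 23, and let-7b and let-7i at 19 of 22, counted from the 5′ end. Probes for such close sequences can take up each other's target, and how far they did was not tested. miR-195 and miR-497 shared the seed AGCAGCA but only 12 of 21 positions. They lie 332 bases apart, start to start, on the plus strand of chromosome 11, miR-497 at chr11:70234730-70234751 and miR-195 at chr11:70235062-70235082. One copy of miR-199a-3p, at chr1:162217883-162217904, lies 5555 bases from miR-214, at chr1:162223438-162223459, both on the plus strand. miR-34a is at chr4:150068473-150068494 on the plus strand, and miR-223 at chrX:96242884-96242905 on the plus strand.

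Values below are log2 of the scaled signal, where 0 is the 75th percentile of an array's 395 mouse probes detected throughout the series and -5.79 is a floor set under the dimmest signals. Differences are day 28 minus day 1 with the standard error of the fit (SE), and a miRNA was called at a Benjamini-Hochberg adjusted p under 0.05 in limma. In this comparison 55 of 321 miRNAs were called higher (17.1%) and 55 lower (17.1%). In 99 of the 110 the day 1 and day 28 arrays did not overlap, against 119 of all 321 tested. Calls and overlap rest on the same values. The differences ran from -2.18 to 2.56 with a median of -0.15 over all tested and a median SE of 0.23. A difference of at least 1 in size was found for 17 of the higher and 31 of the lower miRNAs. Among the 256 miRNAs detected on all 7 arrays, 53 were called higher and 35 lower. Between day 28 and the uninjured arteries 26.2% of the tested miRNAs were called in either direction, 54 higher and 30 lower.

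The balance between higher and lower depended on how arrays were brought to a common scale and on which signal was used. It was 107 higher and 14 lower with the 75th percentile of all mouse probes, 91 and 18 with median scaling, 66 and 32 after quantile normalization, and 18 and 2 without scaling. With the scanner's total gene signal, another summary of a miRNA's spots at the main scaling, it was 26 and 77. In the same order the median over all tested miRNAs was 0.34, 0.18, -0.01, 0.20 and -0.43. In all, 62 miRNAs were called in 1 direction under the main, all-probe, median and quantile scalings, 48 higher and 14 lower. Fewer lower calls were made without day 1 replicate 1 (32) or without day 1 replicate 2 (35).

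All day 1 arrays lay on slide 1, with day 28 replicates 1 and 2, while day 28 replicates 3 and 4 lay on slide 2. The day 7 arrays also lay on slide 1, and the uninjured and day 14 arrays on slide 2. A difference between day 1 and uninjured arteries therefore cannot be told apart from slide. With slide as a block 20.2% of the miRNAs were called, 38 higher and 27 lower, and 63 of these 65 were among the 110. None of the 110 changed sign under the block. That estimate rests on day 28 replicates 1 and 2. Within slide 1 alone 39 were called higher and 61 lower. Without day 28 replicate 2 the counts were 51 and 54, and 99 of the 110 were called again. With replicate 1 as the only day 28 array of slide 1 they were 17 and 49.

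**Figure D1:**
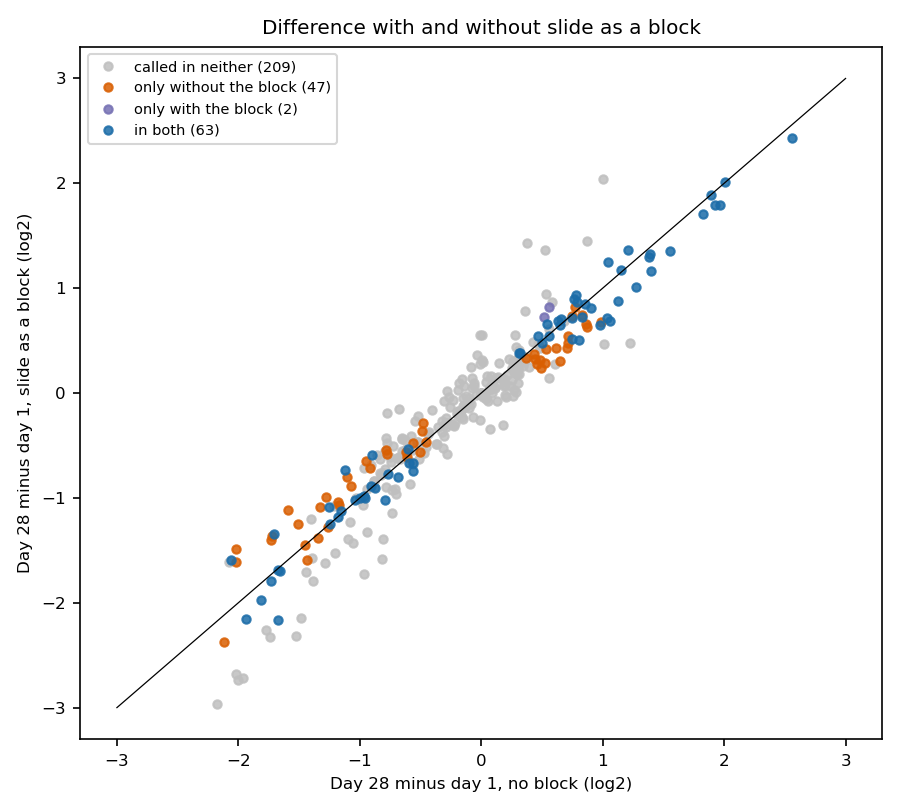
The log2 difference between day 28 and day 1 for each of the 321 tested miRNAs, without slide as a block (x axis) and with it (y axis), coloured by the fit in which it was called; the line marks equal values. The 63 miRNAs called in both fits lie on the same side of 0 in each.

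Day 28 replicate 2 stood apart in markers of epithelium. The log2 sum of 9 epithelial strands was 0.64 there and between -2.57 and -2.29 on the other 6 arrays. 4 of the 9, miR-200a*, miR-200b*, miR-200c* and miR-203*, were detected on none of the 7. On that array miR-200b reached -1.35 and miR-200c -1.26, against -5.79 to -5.36 and -5.41 to -4.23 on the others. The list of 16 epithelial strands had 6 tested and 0 called in limma, also 0 at an unadjusted p under 0.05, with a median of 0.62, a value that also rests on that array. Without it miR-200b differed by -0.08 and miR-200c by -0.01, and miR-141 was called lower at -0.67 (adjusted p = 0.0405). Named calls that change without this array are given with and without it.

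Among called miRNAs whose arrays did not overlap between the days, the largest increases were in miR-34a, miR-146a, miR-199b*, miR-155, miR-342-3p and miR-214, and the largest decreases in miR-297a*, miR-153, miR-7b, miR-218, miR-466d-3p and miR-1. Each rose or fell by 3.51-fold or more. miR-467g (-2.18) and miR-137 (-2.08) differed by as much and were not called.

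**Figure D2:**
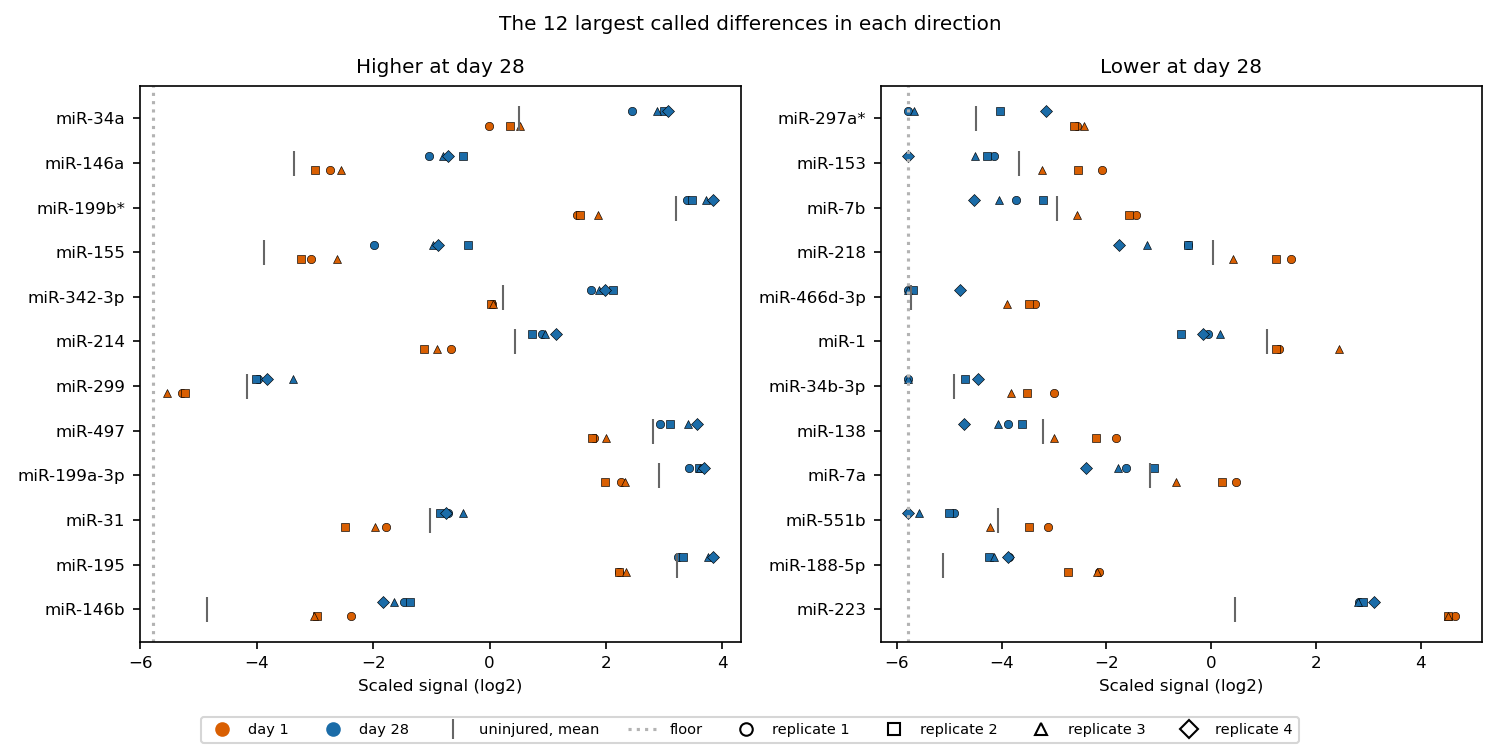
Scaled signal (log2) of the 12 largest called differences in each direction whose arrays did not overlap, 1 symbol per array, with the mean of the uninjured arteries as a bar and the floor as a dotted line. For miR-34a the day 28 arrays lie between 2.44 and 3.07 and the day 1 arrays between -0.02 and 0.53.

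**Figure D3:**
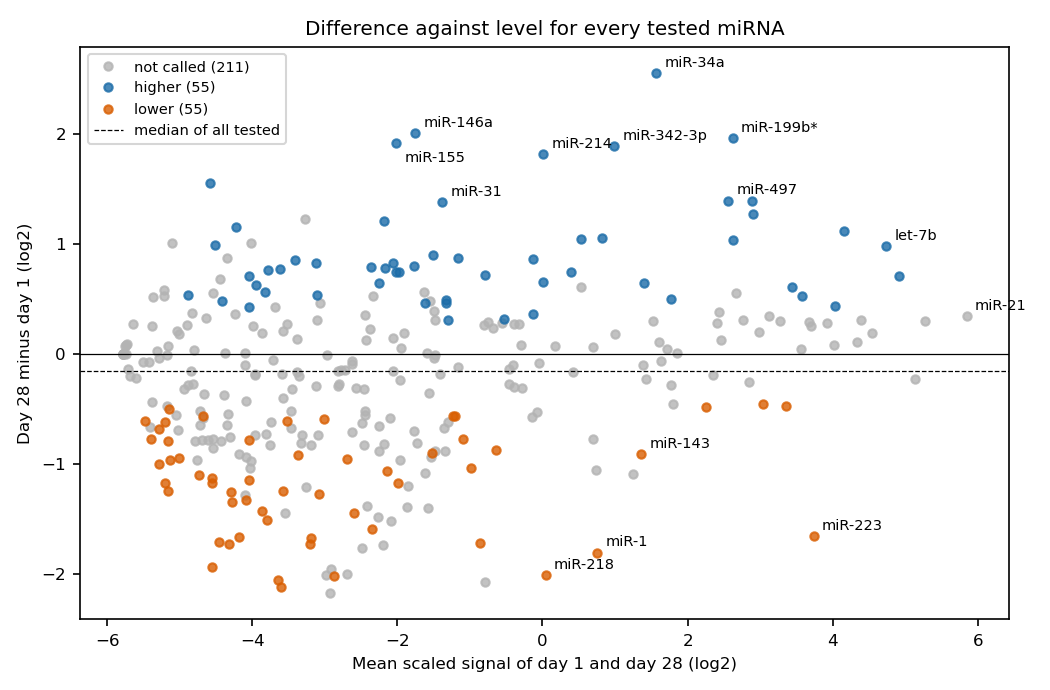
The log2 difference between day 28 and day 1 against the mean of both group means (log2 scaled signal) for the 321 tested miRNAs. Calls lie on both sides of 0, 55 on each, and the dashed line marks the median of -0.15.

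Leukocyte miRNAs moved in different directions. miR-223, a marker of neutrophils and other myeloid cells, read 4.65, 4.52 and 4.53 at day 1 and 2.83, 2.90, 2.80 and 3.10 at day 28. It fell 3.16-fold (difference -1.66, SE 0.16, adjusted p = 7.4e-06 by limma), with no overlap. At day 28 it was still 2.44 above the uninjured mean of 0.46 (SE 0.16, adjusted p = 1.39e-07). The decrease was as large within slide 1, at -1.70.

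miR-155, which is induced in activated macrophages and lymphocytes, went the other way. It read -3.07, -3.23 and -2.62 at day 1 and -1.98, -0.37, -0.97 and -0.88 at day 28. The rise was 3.79-fold (1.92, SE 0.29, adjusted p = 2.55e-04), although day 28 replicate 1 was low, and with that array alone from slide 1 it was 0.99. miR-342-3p, abundant in lymphoid and myeloid cells, read 0.05, 0.02 and 0.06 at day 1 and 1.74, 2.12, 1.88 and 1.98 at day 28, a 3.71-fold rise (1.89, SE 0.15, adjusted p = 1.2e-06). Its partner miR-342-5p rose 2.23-fold, but this call was lost under 8 alternatives. Among them were the mean over probes (0.31), normexp background (0.26), no scaling and the total gene signal.

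miR-142-3p, found in most blood cell lineages, did not pass the test. It read 1.29, 1.01 and 0.94 at day 1 and 0.26, 1.52, -0.27 and -0.30 at day 28, and replicate 2 alone was above the day 1 arrays. With all arrays the difference was -0.78 (SE 0.35, adjusted p = 0.0949). Without replicate 2 it was -1.18 and called (adjusted p = 9.9e-04), and its partner miR-142-5p went from -0.68 to -1.05 (adjusted p = 0.00561 without that array). miR-150, a lymphocyte miRNA, was detected on 1 day 1 array and 3 day 28 arrays and was highest, at -3.49, in the same replicate 2.

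Of 10 leukocyte-enriched strands 8 were tested, with 3 called higher and 1 lower, against 17.1% of all tested in each direction. Their median was -0.03, against -0.15 over all tested, and became positive, 0.25 to 0.41, under the other scalings. The summed level of 5 defining leukocyte strands lay between 4.67 and 4.82 on the day 1 arrays, between 3.02 and 3.47 on those of day 28 and between 0.63 and 0.95 in uninjured arteries, and 1 of them, miR-150*, was detected on no array of the 2 days. Most of this sum was miR-223, whose own values are given above. The part of this sum in the results was not tested.

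miR-146a and miR-146b are induced by NF-κB and restrain its signalling. miR-146a read -2.75, -2.997 and -2.55 at day 1 and -1.04, -0.47, -0.80 and -0.71 at day 28. It rose 4.03-fold (2.01, SE 0.16, adjusted p = 1.26e-06). miR-146b read -2.39, -2.96 and -3.02 and then -1.47, -1.37, -1.65 and -1.83, a 2.31-fold rise (1.21, SE 0.17, adjusted p = 1.59e-04). Neither overlapped between days, and both were above the uninjured level at day 28, by 2.61 and 3.27.

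The strands of miR-21, a miRNA of smooth muscle growth and fibrosis, differed. miR-21 itself read 5.81, 5.41 and 5.81 at day 1 and 6.07, 5.99, 5.93 and 6.09 at day 28. That difference of 0.35 (SE 0.20, adjusted p = 0.191) was not called, and day 28 was 2.67 above uninjured. miR-21 was called higher with the 75th percentile of all probes (0.92), with median scaling (0.73) and with array weights (0.45). The passenger strand miR-21* fell 2.22-fold, from a mean of -3.46 ± 0.37 (SD, n = 3) to -4.62 ± 0.22 (SD, n = 4), at an adjusted p of 0.00154, but this call was lost with the 75th percentile of all probes, without scaling and with normexp background. Of the 6 tested inflammation-induced strands, 2 were called higher and 1 lower, against 17.1% of all tested each way.

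miRNAs of mesenchymal cells rose together. miR-199b*, the 5p strand of miR-199b, read 1.49, 1.54 and 1.87 at day 1 and 3.39, 3.47, 3.72 and 3.84 at day 28. Its rise was 3.91-fold (1.97, SE 0.14, adjusted p = 8.33e-07). miR-214, which is expressed from the same transcript as a copy of miR-199a, read -0.66, -1.13 and -0.91 and then 0.90, 0.72, 0.95 and 1.13, a 3.54-fold rise (1.82, SE 0.18, adjusted p = 7.87e-06). miR-199a-3p rose 2.62-fold and miR-199a-5p 2.06-fold. In this list 4 of 5 tested strands were called higher, against 17.1% of all tested, the exception being miR-214* at 0.18. The list's median was 1.39, ranging from 1.21 to 1.96 under the other scalings.

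miR-199b* and miR-214 read below the uninjured arteries at day 1. All uninjured arrays lay on slide 2 and all day 1 arrays on slide 1, so that gap cannot be told apart from slide. miR-199b* was 1.56 below uninjured at day 1 and 0.41 above it at day 28 (adjusted p = 0.0463). miR-214 was 1.33 below uninjured at day 1, and its day 28 difference from uninjured, 0.49, was not called (adjusted p = 0.0624).

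Of 6 tested neointima-associated strands 1 was called higher and 1 lower, against 17.1% of all tested each way. The lower one was miR-365 (-1.04), given below with the fat-associated strands. The higher one was miR-31, which promotes smooth muscle growth. It read -1.77, -2.48 and -1.97 at day 1 and -0.71, -0.86, -0.46 and -0.75 at day 28. The rise was 2.61-fold (1.38, SE 0.23, adjusted p = 7.91e-04) with no overlap. At day 28 miR-31 was 0.33 from uninjured, not called (adjusted p = 0.348). At day 1 it was -1.05 from uninjured, a gap that cannot be told apart from slide. miR-221 and miR-222, which restrain inhibitors of the cell cycle in smooth muscle, differed by 0.56 (SE 0.22, adjusted p = 0.0679) and 0.52 (SE 0.20, adjusted p = 0.0637). Both were called with slide as a block, at 0.82 (adjusted p = 0.0326) and 0.73 (adjusted p = 0.035), and miR-221 without day 1 replicate 1 (0.75). miR-222 was detected on no day 1 array, and it was also called without day 1 replicate 3 (0.64) or without day 28 replicate 3 (0.64). With normexp background its difference turned to -0.04, not called. Under the all-probe, median and quantile scalings 4 of the 6 strands were called higher. Of all 321 tested, 107, 91 and 66 were called higher under these scalings, against 55 in the main fit.

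miR-143 and miR-145, made from 1 transcript and required for contractile smooth muscle, were lower at day 28. miR-143 read 2.29, 1.47 and 1.69 at day 1 and 0.87, 0.98, 0.84 and 0.93 at day 28. It fell 1.88-fold (difference -0.91, SE 0.21, adjusted p = 0.00594). miR-145 fell 1.95-fold (difference -0.96, SE 0.26, adjusted p = 0.0117). At day 28 both were below uninjured, by differences of -1.39 (adjusted p = 3.17e-04) and -1.47 (adjusted p = 0.00102).

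The direction of miR-143 and miR-145 held under each scaling tried, but both calls were lost with the 75th percentile of all probes, with median scaling and without scaling, and that of miR-145 also after quantile normalization and without day 1 replicate 1 (-0.84, adjusted p = 0.0506). Another strand, miR-145*, was detected on none of the 7 arrays. The endothelial miR-126-3p read 2.81, 3.29 and 3.27 at day 1 and 3.48, 3.63, 3.97 and 3.88 at day 28. It rose 1.53-fold (0.61, SE 0.15, adjusted p = 0.00753), while the fit with a slide term gave a difference of 0.43, not called (adjusted p = 0.0679), and quantile normalization 0.34, also not called (adjusted p = 0.104).

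In the miR-34 family 2 of 5 tested strands were called higher and 1 lower, against 17.1% of all tested each way. miR-34a, a target of p53 that restrains the cell cycle and rises in senescent vessels, read -0.02, 0.35 and 0.53 at day 1 and 2.44, 3.00, 2.87 and 3.07 at day 28. It rose 5.89-fold (2.56, SE 0.19, adjusted p = 9.16e-07), and was 2.34 above uninjured at day 28 but -0.22 from it at day 1 (adjusted p = 0.413). miR-34b-5p, with the same seed, rose 1.83-fold (0.87, SE 0.24, adjusted p = 0.0144), a call lost with slide as a block (0.63, adjusted p = 0.115) and without day 1 replicate 3 (0.75, adjusted p = 0.0524). The opposite strand of that hairpin, miR-34b-3p, has another seed and fell. It read -3.002, -3.52 and -3.83 at day 1, was detected on 2 of 4 arrays at day 28, and was at least 3.19-fold lower there (difference -1.74, SE 0.41, adjusted p = 0.00698). Here and below, "at least" marks a fold in which arrays without detection stand at their lowest detected signal or at the floor.

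miR-195 and miR-497, neighbours that target cyclins, also rose together. miR-195 read 2.22, 2.22 and 2.34 at day 1 and 3.23, 3.31, 3.75 and 3.85 at day 28, a 2.42-fold rise (1.27, SE 0.17, adjusted p = 1.07e-04). miR-497 read 1.80, 1.76 and 2.01 and then 2.94, 3.10, 3.41 and 3.56, a 2.63-fold rise (1.40, SE 0.16, adjusted p = 2.92e-05). In both the arrays of slide 2 were the higher at day 28, and within slide 1 the rises were 1.01 and 1.16. Their day 28 differences from uninjured, 0.32 for miR-195 and 0.45 for miR-497, were not called (adjusted p = 0.188 and 0.0546). The other called member of the 9 tested miR-15/16 strands was miR-503 at 0.48 (adjusted p = 0.0253), a call lost under 13 alternatives and turned to -0.0028 with normexp background. miR-16 was at 0.12 and miR-15b at 0.35, and after quantile normalization miR-16 turned to -0.34, called lower (adjusted p = 0.0424). With the 75th percentile of all probes both were called higher, at 0.70 and 0.92. The median of that family was 0.35 and turned to -0.05 after quantile normalization.

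The let-7 family, which rises as cells differentiate, had 4 of 13 tested strands called higher and 1 lower, against 17.1% of all tested each way. let-7b read 4.14, 4.32 and 4.28 at day 1 and 4.64, 5.15, 5.47 and 5.63 at day 28, a 1.97-fold rise (0.98, SE 0.19, adjusted p = 0.00214). let-7i read 3.50, 3.62 and 3.65 and then 4.15, 4.79, 4.91 and 5.01, a 2.18-fold rise (1.12, SE 0.18, adjusted p = 5.49e-04). Day 28 replicate 1 was the lowest of the 4 in both. For let-7i day 28 differed from uninjured by 0.35, not called (adjusted p = 0.176). let-7c and let-7d were called too, at 0.71 and 0.53, but not with slide as a block (0.48 and 0.29) or after quantile normalization (0.28 and 0.27). The call of let-7d was also lost without day 1 replicate 1 (0.52) or 2 (0.54) or day 28 replicate 3 or 4 (0.45 each). In the same family let-7f differed by 0.08 and the called decrease was that of let-7i*, which was detected on 1 of 4 day 28 arrays. let-7i* read -4.99, -5.00 and -5.05 at day 1, near the floor, and its call was lost under 7 alternatives. With the floor 2 times as high its difference was 0.

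miR-99a, a regulator of mTOR, rose 2.05-fold from 2.10 ± 0.05 (SD, n = 3) to 3.14 ± 0.38 (SD, n = 4), with no overlap (adjusted p = 0.00104). At day 28 it was -0.24 from uninjured, not called (adjusted p = 0.401). In its family 3 of 7 tested strands were called higher, against 17.1% of all tested. The others were miR-100 at 0.65 and miR-125a-5p at 0.36. Both of those calls were lost with slide as a block (0.31 and 0.33) and within slide 1. For miR-100 the call was also lost without day 1 replicate 1 (0.64) or 3 (0.61) or day 28 replicate 3 (0.52), and for miR-125a-5p without any of 5 arrays (0.27 to 0.38).

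miR-181b, miR-181c and miR-181d, of a family that restrains inflammatory signalling in endothelium, were called at 0.79, 0.65 and 0.63 (adjusted p = 0.0107, 0.00421 and 0.0093). That was 3 of 5 tested strands called higher, against 17.1% of all tested. Within slide 1 miR-181b and miR-181d were not called (adjusted p = 0.0824 and 0.07), and none of the 3 was without scaling or with the total gene signal. The median of the 5 tested members was 0.63 and was positive under each scaling. In the miR-23/27/24 clusters, which act in angiogenesis, 2 of 7 tested strands were called higher, against 17.1% of all tested. The 7 lay between 0.25 and 0.46, with a median of 0.30. After quantile normalization the median was 0.15, miR-24 was not called (0.17) and miR-27a turned to -0.03. Under the all-probe and median scalings 7 and 6 of them were called higher, where 107 and 91 of all 321 were. The 2 called in the main fit were miR-24 at 0.44 and miR-24-1* at 0.46. Neither was called with slide as a block (0.32 and 0.27) or without day 1 replicate 2 (0.41 and 0.44), day 1 replicate 3 (0.36 and 0.38) or day 28 replicate 3 (0.39 and 0.35), and miR-24-1* was not called without day 28 replicate 4 (0.44). miR-10b, encoded among the Hox genes, rose 1.82-fold (0.87, adjusted p = 0.00818), a call lost with slide as a block (0.65, adjusted p = 0.0712), while miR-10a was not called at 0.29. miR-26a, which restrains growth, and miR-26b were not called at 0.38 and -0.10, nor were the hypoxia-induced miR-210 at 0.27 and the strands miR-140 and miR-140* at -0.25 and -0.19. miR-10a, miR-26a and miR-210 were each called higher with the 75th percentile of all probes, with median scaling and with array weights.

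The cluster from miR-17 to miR-92a and its paralogs, which promote proliferation, had 4 of 11 tested strands called lower, against 17.1% of all tested. They were miR-18a*, miR-19a, miR-18a and miR-19b, at -1.35, -0.90, -0.57 and -0.49. miR-19a read -0.95, -1.18 and -1.08 at day 1 and -1.87, -1.46, -2.18 and -2.39 at day 28 (SE 0.20, adjusted p = 0.00497). The other members were smaller in size, from -0.30 for miR-93 to 0.18 for miR-25, and were not called. The median was -0.28 and became positive, 0.10 to 0.29, with the 75th percentile of all probes, with median scaling and without scaling. Under the first of these miR-18a and miR-19b turned to 0.01 and 0.08. Without day 1 replicate 3 miR-18a was at -0.48 and not called (adjusted p = 0.0684). With slide as a block miR-18a* (-1.39) and miR-19b (-0.36) were not called, and miR-18a* was not without day 1 replicate 1 (-1.26) or 3 (-1.33) or day 28 replicate 3 (-1.07).

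miR-29b and miR-29c, which repress collagens, were called lower at -0.48 (adjusted p = 0.046) and -0.46 (adjusted p = 0.0159), while miR-29a was at 0.30 and not called. It was called with the 75th percentile of all probes (0.87), with median scaling (0.68), with array weights (0.44) and without day 28 replicate 1 (0.38). Neither call was made with slide as a block, at -0.29 and -0.46. Both turned positive, to 0.09 and 0.12, with the 75th percentile of all probes. miR-29b was not called when any of 5 arrays was left out (-0.53 to -0.33), and miR-29c not without day 1 replicate 1 (-0.41). In the miR-30 family 1 of 9 tested strands was called higher, against 17.1% of all tested. It was miR-30b* (0.71, adjusted p = 0.00698), which was not called with slide as a block (0.43).

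**Figure D4:**
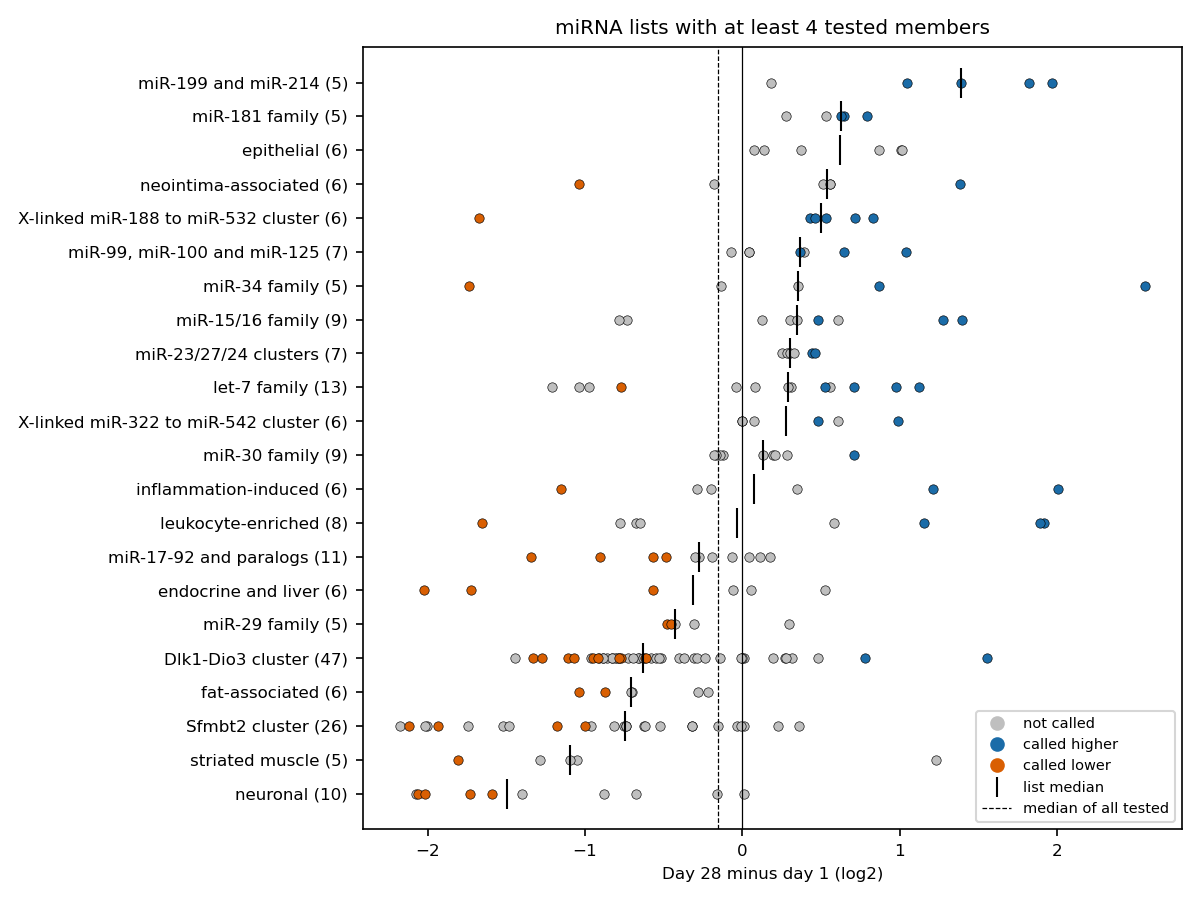
The log2 difference between day 28 and day 1 of every tested member of the lists with at least 4 of them (number tested in brackets), sorted by list median, with called members coloured. In the list of miR-199 and miR-214 the median is 1.39 and that of the neuronal list -1.50, against -0.15 over all tested miRNAs (dashed).

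In the list of nerve-associated miRNAs 4 of 10 tested strands were called lower at day 28, against 17.1% of all tested. Without scaling limma called 0 of them lower, while 3 were lower at an unadjusted p under 0.05. The differences ran from -2.08 to 0.0085 with a median of -1.50, which lay between -1.33 and -0.92 under the other scalings. miR-218, a motor neuron miRNA, read 1.52, 1.23 and 0.41 at day 1 and -0.44, -0.44, -1.22 and -1.77 at day 28. It fell 4.05-fold (difference -2.02, SE 0.49, adjusted p = 0.00759). miR-153 read -2.08, -2.55 and -3.23 and then -4.14, -4.29, -4.51 and the floor, and was at least 4.16-fold lower (difference -2.06, SE 0.42, adjusted p = 0.00242). miR-138 fell 3.32-fold (difference -1.73, adjusted p = 0.0129), a call lost without day 1 replicate 1 (-1.47, adjusted p = 0.0595). The fourth was miR-129-3p, at -1.59 (adjusted p = 0.0398). It was not called when slide was a block (-1.12). Its call was also lost without day 1 replicate 1 (-1.39) or 2 (-1.43) or day 28 replicate 3 (-1.53) or 4 (-1.33).

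Other nerve miRNAs missed the threshold. miR-137 differed by -2.08 (SE 0.76, adjusted p = 0.0503) and miR-124 by -1.40 (SE 0.70, adjusted p = 0.13), although in both the arrays did not overlap. With slide as a block 1 of the 10 tested strands was called, miR-153 at -1.59 (adjusted p = 0.0303), while miR-218 was at -1.49 (adjusted p = 0.07). The summed level of 5 defining strands lay between 0.59 and 1.65 on the day 1 arrays, between -1.02 and -0.0025 on those of day 28 and between -0.05 and 1.09 in uninjured arteries, so the uninjured range overlapped both. miR-124* was detected on no array of the 2 days. The part of this sum in the results was not tested.

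miR-7a and miR-7b, of neuroendocrine and neural cells, followed the same course. miR-7b read -1.44, -1.57 and -2.57 at day 1 and -3.73, -3.20, -4.06 and -4.53 at day 28. It fell 4.07-fold (difference -2.02, SE 0.46, adjusted p = 0.00574). miR-7a fell 3.3-fold, from 0.47, 0.20 and -0.66 to -1.64, -1.09, -1.78 and -2.38 (difference -1.72, SE 0.44, adjusted p = 0.00989). Within slide 1 the differences were -1.61 and -1.36, both called. With slide as a block over all arrays they had the same values and were not called (adjusted p = 0.0535 and 0.076). Neither differed by a called amount from uninjured at day 28, at -0.93 and -0.56.

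In the striated muscle list miR-1, a miRNA of heart and skeletal muscle, was called. It read 1.29, 1.24 and 2.44 at day 1 and -0.06, -0.57, 0.17 and -0.16 at day 28, a 3.51-fold fall (difference -1.81, SE 0.34, adjusted p = 0.00154). miR-133a and miR-133b, which are made from the same transcripts as miR-1 and miR-206, differed by -1.05 and -1.09 (adjusted p = 0.0665 and 0.0679). Day 1 replicate 3 was the highest in all of them. Without that array miR-133a was at -0.45 and miR-133b at -0.46, and without day 1 replicate 1 they were called at -1.46 and -1.55. miR-206, a miRNA of skeletal muscle, was not called at 1.23 (adjusted p = 0.233). The summed level of 5 muscle strands ran from 2.52 to 4.31 at day 1 and 1.31 to 2.41 at day 28.

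Of 6 tested fat-associated strands, miR-365 and miR-193 were called lower, at -1.04 and -0.87 (adjusted p = 0.00214 and 0.00729). Of all tested, 17.1% were called lower. miR-365 read -0.45, -0.34 and -0.62 at day 1 and -1.25, -1.73, -1.30 and -1.75 at day 28. Both calls were lost with the 75th percentile of all probes and with median scaling, where the list's median was -0.13 and -0.33 against -0.71 in the main fit. miR-193b was not called at -0.28. The erythroid miR-451, miR-144 and miR-486 differed by -0.23, -0.57 and 0.26, and none was called or had an unadjusted p under 0.05 in limma.

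Members of genomic clusters differed within a cluster. On the X chromosome, the cluster from miR-188 to miR-532 had all 6 tested strands called, 5 higher and 1 lower. Of all tested, 17.1% were called each way. miR-532-5p rose 1.78-fold (0.83, SE 0.13, adjusted p = 5.49e-04) and miR-500 1.64-fold (0.72, adjusted p = 0.00743), the latter not called with slide as a block (0.54). miR-188-5p, encoded at chrX:7248031-7248051 on the minus strand, read -2.14, -2.74 and -2.19 at day 1 and -3.85, -4.24, -4.15 and -3.88 at day 28. It fell 3.19-fold (difference -1.67, SE 0.41, adjusted p = 0.00743). The same split, 5 higher and 1 lower, was found under the all-probe, median and quantile scalings, and with slide as a block it was 2 and 1. In the other X-linked cluster, from miR-322 to miR-542, 2 of 6 tested strands were called higher, against 17.1% of all tested. They were miR-542-5p at 0.99 and miR-503, and neither was called with slide as a block (0.67 and 0.32). miR-322 was not called at 0.61 (adjusted p = 0.0503) but was so without day 1 replicate 2 (0.79) or day 28 replicate 1 (0.77). It was also called with the 75th percentile of all probes (1.18) and with median scaling (0.99).

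The imprinted Dlk1-Dio3 cluster on chromosome 12 had 47 tested strands, with 2 called higher and 10 lower, the latter near the 17.1% of all tested, and a median of -0.63. Both increases came from 1 hairpin. miR-299 was detected on 2 of 3 day 1 arrays, read -3.97, -4.02, -3.38 and -3.82 at day 28, and was at least 2.8-fold higher (1.55, SE 0.18, adjusted p = 3.05e-05). Its star strand rose 1.72-fold (0.78, adjusted p = 0.00202). Neither strand differed by a called amount from uninjured at day 28, at 0.37 and 0.13 (adjusted p = 0.15 and 0.593). Of the miR-299 probes another stayed at the floor on both days, and with the mean over probes or normexp background the call of miR-299 was lost. The lower members included miR-376b at -1.27 (adjusted p = 0.0199) and miR-381 at -0.79 (adjusted p = 0.0332). miR-376b was not called without day 1 replicate 1 (-0.86) or 2 (-1.26) or day 28 replicate 4 (-1.06), and miR-381 not without day 1 replicate 1 (-0.55) or 2 (-0.76) or day 28 replicate 3 (-0.78) or 4 (-0.64). With slide as a block limma called 0 members of the cluster lower, while 5 were lower at an unadjusted p under 0.05, against 25 without the block. Under the other scalings the cluster had at most 1 member called lower and up to 7 higher, and its median lay between -0.28 and -0.14. The 7 were found with the 75th percentile of all probes. There 107 of all 321 tested were called higher and 14 lower, and the median of all tested was 0.34, against -0.14 in the cluster.

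The Sfmbt2 cluster, a rodent array of many near-identical hairpins whose probes may not tell members apart, had 4 of 26 tested strands called lower, a share close to the 17.1% of all tested, 2 of them also with slide as a block, and a median of -0.75. miR-466d-3p read -3.37, -3.47 and -3.90 at day 1. At day 28 it was detected on 2 of 4 arrays and was highest, at -4.80, in replicate 4. It was at least 3.67-fold lower (difference -1.94, SE 0.22, adjusted p = 3.05e-05). miR-297a* read -2.56, -2.63 and -2.43 at day 1 and -5.79, -4.03, -5.67 and -3.15 at day 28 (difference -2.12, SE 0.68, adjusted p = 0.0296). That call was lost without any 1 of 5 arrays, at -2.16 to -1.75, and under 16 alternatives in all. miR-466l was lower at -0.999 (adjusted p = 0.0034), detected on none of the day 28 arrays, and at -0.63 without day 1 replicate 1. Its call was lost under 7 alternatives. With the floor 2 times as high it was at -0.25 (adjusted p = 0.175) and with normexp background at -0.26 (adjusted p = 0.204). miR-467g had the largest decrease of the series' tested miRNAs in this comparison, -2.18, and was not called (SE 0.92, adjusted p = 0.0784), with day 28 replicate 4 at -1.82. Without that array it was at -2.91 and called (adjusted p = 0.0205).

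miR-551b was lower outside these lists. It read -3.12, -3.48 and -4.22 at day 1 and -4.91, -5.00, -5.58 and the floor at day 28, at least 3.26-fold lower (difference -1.71, SE 0.32, adjusted p = 0.00149). Among further miRNAs, picked after their values were seen, both strands of miR-340 fell, miR-340-5p 2.38-fold (difference -1.25, SE 0.18, adjusted p = 1.89e-04) and miR-340-3p 1.52-fold, the latter a call lost with the 75th percentile of all probes (-0.03) and after quantile normalization (-0.21). miR-340-5p was nevertheless 1.49 above uninjured at day 28. miR-324-5p and miR-152, also picked so, rose 1.87-fold and 1.68-fold with small SEs of 0.10 and 0.11. At day 28 they were 0.03 and 0.01 from uninjured, neither called (adjusted p = 0.864 and 0.993).

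Both strands were tested for 58 hairpins. In 13 both strands were called, 11 of them in 1 direction, in 19 hairpins 1 strand was called and in 26 neither. Of all 321 tested miRNAs 110 were called. The hairpins called in 1 direction included miR-342, miR-199a, miR-324, miR-299, miR-455, miR-340 and miR-7a. The 2 with opposite calls were miR-34b and let-7i. For let-7i this rests on let-7i*, which lay near the floor and lost its call under 7 alternatives. In 38 of the 58 the strands had the same sign.

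The 5 groups together show where day 1 and day 28 stood on the course after injury. Arrays of days 1 and 7 lay on slide 1, and those of day 14 and the uninjured arteries on slide 2. Steps between these groups across slides cannot be told apart from slide. From uninjured arteries through days 1, 7 and 14 to day 28, the mean of miR-34a was 0.51, 0.29, 2.68, 3.29 and 2.84. miR-223 went from 0.46 through 4.57, 3.64 and 3.46 to 2.91. miR-143 was lowest at day 14, at 0.04, against 2.30 in uninjured arteries and 0.90 at day 28. miR-218 was lowest at day 7, at -2.02, and stood at -0.97 at day 28. Differences between these other days were not tested here.

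**Figure D5:**
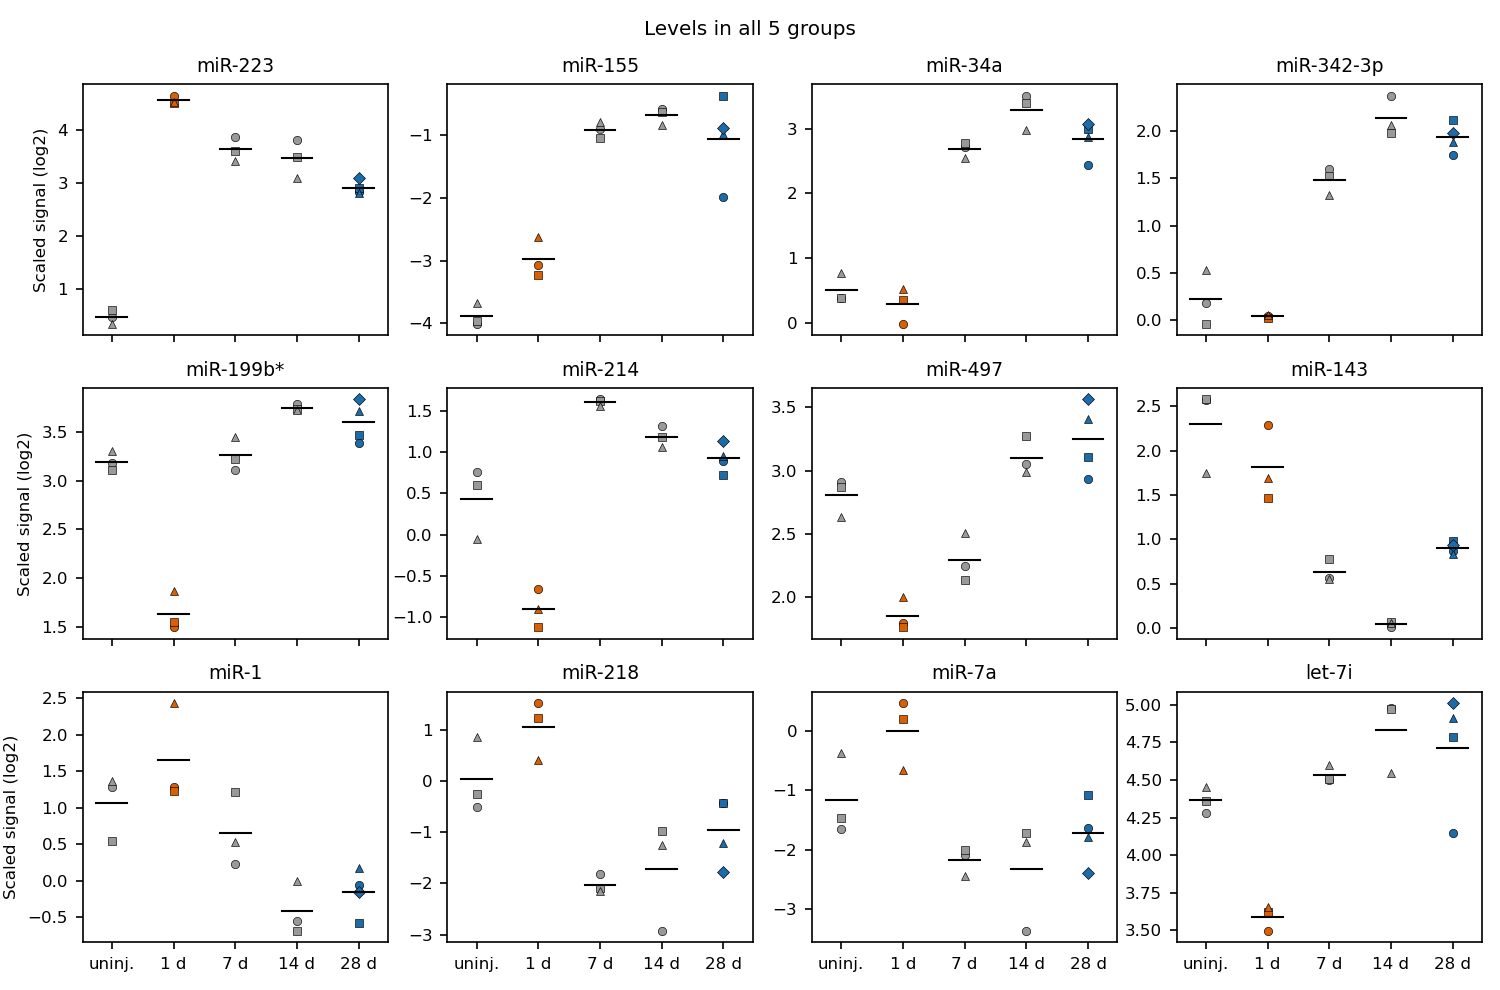
Scaled signal (log2) of 12 miRNAs on each array of the 5 groups (uninjured and 1, 7, 14 and 28 days after injury), with the group mean as a bar and day 1 and day 28 coloured. Each panel has its own scale, and the day 1 and day 28 arrays do not overlap in any of the 12.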

How the data were processed

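RNA of 16 carotid arteries (5 groups) was hybridised to 1 array each. The deposited scanner files hold spot intensity from Agilent Feature Extraction 9.5.1.1, per the file headers, processed by the authors. How the background was estimated is not given in the sources used here. The authors' value table (intensity) holds 610 of 611 mouse miRNAs and equals the total gene signal in 100% of values within 0.1%, or 0.005 where that is larger.

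Unmarked spots of a probe were averaged, divided by the array's 75th percentile over the 395 probes detected on all arrays, floored (log2 -5.79) and put on the log2 scale. A probe was detected when at least 50% of its spots were well above background, and the brightest probe stood for a miRNA. Outlier marks fell on 3.48% of mouse spots and saturation on 0. Across the series the 75th percentile ran from 401 to 1432 intensity units. On the arrays compared it ran from 483.8 to 761.3 (day 1) and 566.5 to 1097 (day 28), with 287 to 330 miRNAs detected. Replicates correlated at 0.977 to 0.988 (day 1) and 0.955 to 0.983 (day 28). The number of arrays limits the precision.

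limma 3.58.1 (R 4.3.3, data.table at version 1.17.8) fitted all 5 groups in 1 model with Benjamini-Hochberg adjustment. On simulated data for this comparison (321 miRNAs, 60 changed, 20 runs), 70.2% of changes of log2 1 and 94% of log2 2 were recovered, with 4.17% false among calls. The simulated noise was independent between arrays, with no slide effect, no scaling difference and no floor. These shares therefore check the code and do not give the false share among the calls reported here.

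Named were the 12 largest called differences per direction with arrays wholly apart, up to 3 members with the smallest p of each of 29 lists, and cell type markers. Partner strands, seed pairs and the remaining list members named were added after their values were seen. The members and lists were chosen with earlier results of these data known. Alternatives covered scaling, background, filter, floor, probe summary, deposited values, slide, replicate number, moderation, array weights, threshold and each array left out.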

Additional observations from a re-analysis of the deposited data

Results flagged for a closer look

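In 8 of the 110 cases looked at, the gap between 1 of the 4 day 28 arrays and the nearest of the others took up most of the group's range. Chance alone gives about 1 in 20 such cases, but that rate does not apply to let-7i* and miR-466l, where the other 3 arrays stood at the floor and the gap in level was small. Day 28 replicate 2 was high for miR-200b (-1.35, the others -5.79 to -5.51) and miR-141 (-1.51, the others -5.79 to -5.60) and just above the floor for let-7i* (-5.78, the others at -5.79). Replicate 4 was high for miR-466d-3p (-4.80, the others -5.79 to -5.69), just above the floor for miR-466l (-5.77, the others at -5.79) and low for miR-124 (-3.03, the others -2.13 to -1.95). Replicate 1 was low for miR-532-5p (-1.97, the others -1.56 to -1.52) and for miR-18a (-1.82, the others -1.42 to -1.35).

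Of the 98 probes for viral miRNAs, which no comparison used, 13 were well above background on day 28 replicate 1, against 5, 7 and 7 on the uninjured arrays. Day 7 replicate 1 had more, 16, and day 14 replicate 3 had 11.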

How the results depend on the processing

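In the main fit 55 miRNAs were higher and 55 lower at day 28. In the order higher and lower, the counts moved to 107 and 14 (75th percentile over all mouse probes), 91 and 18 (median scaling), 18 and 2 (no scaling), 17 and 31 (when calls also had to reach log2 1 in size), 28 and 21 (replicate block with slide), 66 and 32 (quantile normalization), 49 and 25 (only miRNAs detected on all arrays, so fewer were tested), 38 and 27 (slide as a fixed block), 80 and 91 (array weights), 26 and 77 (total gene signal), 26 and 81 (the authors' value table) and 17 and 49 (within slide 1 with day 28 replicate 1 only). Slide as a block without day 28 replicate 2, an alternative chosen after seeing the data, gave 18 and 14. Beyond fewer arrays or miRNAs, the cause of these shifts was not tested. Leaving out 1 array at a time gave 44 to 63 higher and 32 to 59 lower. With the 75th percentile over all mouse probes the differences of miR-19b (0.0845), miR-18a (0.0064), miR-7a* (0.006), miR-29c (0.117) and miR-29b (0.0943) changed sign, and with normexp background that of miR-503 (-0.0028) did. So did let-7d (-0.001, with day 28 replicate 1 as the only day 28 array of slide 1, and with slide as a block without replicate 2), miR-16 (-0.341, called, after quantile normalization) and miR-141 (-0.666, called, without day 28 replicate 2, against up to 0.759 without another array). Differences called in neither fit changed sign 90 times in 27 miRNAs, 67 of them by more than 1 SD between replicates. Of the 68 named miRNAs called, 15 were called in each of the settings run, among them miR-34a, miR-146a, miR-155, miR-214, miR-31 and miR-223.

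The replicate numbers were not treated as pairs in the main fit. Same-numbered arrays of the 2 days deviated together at correlations of 0.19, 0.18 and -0.01, and differently numbered ones at -0.32 to 0.38. With so few arrays these values cannot show whether the numbers carry a pairing. With the replicate block 44 were higher and 47 lower.

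Dim miRNAs limit the comparison. Of the 321 tested, 256 were detected on all 7 arrays, and 26 on every array of neither day.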
